A study of Mus musculus with 2 samples.

Results

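CD4 single-positive (SP) thymocytes with 2 productive T cell receptor alpha (TRA) chains were studied in mice with and without BTLA, an inhibitory receptor of lymphocytes. A cell, here a cell barcode, was included when it held 2 or more TRA contigs and at most 1 TCR beta (TRB) contig. There were 237 such cells among 9117, with 135 of 4040 cells in the WT library against 102 of 5077 in the Btla KO library. Each of them held exactly 2 TRA contigs and exactly 1 TRB contig. They are called dual-alpha cells below, and cells with 1 TRA contig and at most 1 TRB contig, 1437 WT and 1529 Btla KO, are called single-alpha cells.

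Thymocytes came from C57BL/6J (WT) and C57BL/6-Btla KO (KO) mice of 8 to 12 weeks of age, and a negative selection kit for naive CD4+ T cells was used to obtain the CD4 SP cells. TCR transcripts of single cells were amplified with the 10x Genomics V(D)J workflow, in which a unique molecular identifier (UMI) marks each captured transcript, and 1 library was deposited for each genotype. The number of mice in a library is not given in the sources used here. With 1 library per genotype a difference between the libraries has no replicate check, so the genotypes were not tested against each other. The libraries hold TCR transcripts only, so neither the CD4 SP label nor the loss of Btla could be checked, and the TRA and TRB contigs mark the cells as alpha beta T cells and nothing more. A TRA contig was found in 1704 WT cells, or 42.2%, and in 1798 Btla KO cells, or 35.4%, so most barcodes gave no information on the alpha chain. There were 30 barcodes found in both libraries, of which 2 were WT dual-alpha cells and 0 were dual-alpha cells of the Btla KO library.

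An alpha chain gene is made by joining a TRAV segment to a TRAJ segment, and both copies of the locus can rearrange in the same thymocyte. Further rounds of joining can replace a first product, and each round brings together a TRAV segment lying further 5′ and a TRAJ segment lying further 3′, closer to the constant gene TRAC. Since alpha chains are not strictly excluded from expression by a first productive allele, some mature T cells carry a pair of in-frame alpha transcripts. On GRCm38 the 43 TRAJ segments used by dual-alpha cells span 60.6 kb at chr14:54157280-54217901, from TRAJ58 at the 5′ end to TRAJ2 at the 3′ end, and TRAC follows at chr14:54220521-54224206. The 82 TRAV genes they used lie upstream at chr14:52427928-53876752, from TRAV1 to TRAV21-DV12, over 1448 kb. TRAJ numbers fall from 5′ to 3′, so TRAJ2 lies nearest to TRAC.

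The CDR3 is the part of the chain that spans the join and meets the peptide. The nucleotide CDR3s of the 3 cells of each library whose chain with fewer UMIs had most UMIs are shown first, since in these cells both chains rest on the most molecules. Germline TRAV and TRAJ bases are in lower case, and capitals mark the bases at the join that match neither the end of the TRAV gene nor the start of the TRAJ segment.
WT cell 7, TRAV7D-2 with TRAJ11: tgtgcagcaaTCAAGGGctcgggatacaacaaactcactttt
WT cell 7, TRAV4N-4 with TRAJ4: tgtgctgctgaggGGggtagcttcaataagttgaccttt
WT cell 5, TRAV4-4-DV10 with TRAJ49: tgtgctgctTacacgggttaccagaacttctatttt
WT cell 5, TRAV7D-2 with TRAJ34: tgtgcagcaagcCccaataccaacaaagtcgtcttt
WT cell 1, TRAV6N-6 with TRAJ11: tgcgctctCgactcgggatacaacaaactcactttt
WT cell 1, TRAV6N-5 with TRAJ12: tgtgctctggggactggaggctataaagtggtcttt
Btla KO cell 1, TRAV14-2 with TRAJ13: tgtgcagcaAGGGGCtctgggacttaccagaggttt
Btla KO cell 1, TRAV3N-3 with TRAJ31: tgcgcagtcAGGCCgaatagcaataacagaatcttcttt
Btla KO cell 2, TRAV1 with TRAJ27: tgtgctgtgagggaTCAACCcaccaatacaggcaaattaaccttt
Btla KO cell 2, TRAV12D-3 with TRAJ7: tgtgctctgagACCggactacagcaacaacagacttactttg
Btla KO cell 4, TRAV7N-5 with TRAJ37: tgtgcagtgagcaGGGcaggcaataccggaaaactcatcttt
Btla KO cell 4, TRAV7-5 with TRAJ23: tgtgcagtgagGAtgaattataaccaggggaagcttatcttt
In WT cell 1 the chains used TRAJ11 and TRAJ12, which start 0.586 kb apart, with 12 and 10 UMIs. In WT cell 7, with 11 UMIs for either chain, the TRAJ starts lay 9.15 kb apart. In Btla KO cell 1, which had the most TRA UMIs of all dual-alpha cells at 23 and 14, they lay 17.8 kb apart. The TRAJ12 chain of WT cell 1 had 0 inserted bases.

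The second set shows cells at the ends of the range of TRAJ distance, among cells with at least 5 UMIs in both chains. The WT library had cells in which both chains carried the same TRAJ segment. Only 4 KO cells had at least 5 UMIs in both chains, and the smallest distance among them was 10.7 kb, in Btla KO cell 3. The largest distance among the 4 was 19.2 kb, in Btla KO cell 2 above.
WT cell 2, TRAV13N-2 with TRAJ9: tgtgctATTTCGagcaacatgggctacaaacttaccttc
WT cell 2, TRAV13N-1 with TRAJ9: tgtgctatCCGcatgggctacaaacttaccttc
WT cell 3, TRAV17 with TRAJ58: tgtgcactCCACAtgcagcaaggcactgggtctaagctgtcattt
WT cell 3, TRAV6D-6 with TRAJ58: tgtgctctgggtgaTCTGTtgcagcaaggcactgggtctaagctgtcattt
WT cell 6, TRAV17 with TRAJ37: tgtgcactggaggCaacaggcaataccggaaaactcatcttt
WT cell 6, TRAV6D-5 with TRAJ53: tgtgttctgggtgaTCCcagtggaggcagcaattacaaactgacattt
Btla KO cell 3, TRAV7-5 with TRAJ2: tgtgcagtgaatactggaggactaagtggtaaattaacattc
Btla KO cell 3, TRAV3N-3 with TRAJ11: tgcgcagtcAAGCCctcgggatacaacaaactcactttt
WT cell 2 had TRAJ9 on both chains, joined to different TRAV13 genes with different added bases, and its chains had 7 and 6 UMIs. WT cell 3 joined TRAJ58, the most 5′ segment in use, to TRAV17 and TRAV6D-6, with 6 and 5 UMIs. WT cell 6 had the largest distance of this set in the WT library, 18.9 kb between TRAJ37 and TRAJ53.

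Dual-alpha cells made up 8.59% (95% exact Clopper-Pearson interval 7.25 to 10.1%, 135 of 1572) of the WT cells with a TRA contig and at most 1 TRB contig. Among the KO cells the share was 6.25% (5.13 to 7.54%, 102 of 1631). The intervals of the libraries overlap, and like all intervals here they cover counting error only. Of all cells, including those without a TRA contig, 3.34% (2.81 to 3.94%) in the WT and 2.01% (1.64 to 2.43%) in the KO library were dual-alpha cells. The KO library was the shallower, and its dual-alpha cells had a median of 10 TRB UMIs (quartiles 6.25 and 17) against 14 (9 and 21) in the WT library. To set the libraries beside each other at 1 depth, each cell was thinned to 10 TCR UMIs, which left out 295 WT and 501 KO cells. The UMIs of a second TRA chain count towards these 10, so dual-alpha cells were kept more often than single-alpha cells. Kept were 130 of 135 WT and 90 of 102 KO dual-alpha cells, which raises the shares among kept cells. The expected shares were then 8.47% of WT and 6.60% of KO cells with a TRA contig, and without thinning the same cells gave 10.2% (8.58 to 12.0%) and 7.96% (6.45 to 9.70%). The WT share was thus the higher at either depth, by a difference for which no replicate exists. When contigs with at least 2 UMIs only were counted, the shares were 8.60% in the WT and 5.10% in the KO library, and with at least 3 UMIs they were 7.51% and 3.62%. The gap between the libraries thus grew with this limit. The limit itself takes more pairs from the shallower library, since the chain with fewer UMIs had 1 UMI in 33.3% of KO and 14.1% of WT dual-alpha cells.

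The share of dual-alpha cells was lowest where the TRB chain had few UMIs. Among WT cells with a TRA and 1 TRB contig it was 6.04% (2.80 to 11.2%) at 1 to 4 TRB UMIs and 9.51% (6.91 to 12.7%) at 20 or more. Among KO cells it was 4.13% (1.90 to 7.69%) at 1 to 4 TRB UMIs and 8.08% (5.07 to 12.1%) at 20 or more. All 4 intervals overlap. Cells with 2 TRB contigs, which a droplet with a pair of cells would also give, held a second TRA contig more often, in 17.4% (11.4 to 24.99%, 23 of 132) of the WT and 12.0% (7.47 to 17.9%, 20 of 167) of the KO cells with a TRA contig, and the WT interval lay above that of cells with at most 1 TRB contig while the KO intervals overlapped. Whether any dual-alpha cell was such a droplet was not tested.

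The TRAJ segments of the chains of a cell lay close together. The Spearman correlation of the TRAJ start positions, with each cell entered in both orders, was 0.786 over 135 WT cells and 0.647 over 102 KO cells. It is given as a description, since the cells of a library share 1 preparation and depth. The median distance within a cell was 5.75 kb (quartiles 2.38 and 11.1, highest 34.6) in the WT library. Between chains of different dual-alpha cells of that library it was 16.6 kb (quartiles 7.62 and 27.9). For KO cells the medians were 6.95 kb (quartiles 3.30 and 14.1, highest 51.0) within a cell and 17.0 kb (8.04 and 28.8) between cells. The middle of the distribution was therefore 2 to 3 times closer within a cell than between cells, and the pattern was present in both genotypes. Counted along the order of annotated TRAJ genes, pseudogenes included, the chains of a cell were a median of 5 (WT) and 6 (KO) places apart.

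**Figure D1:**
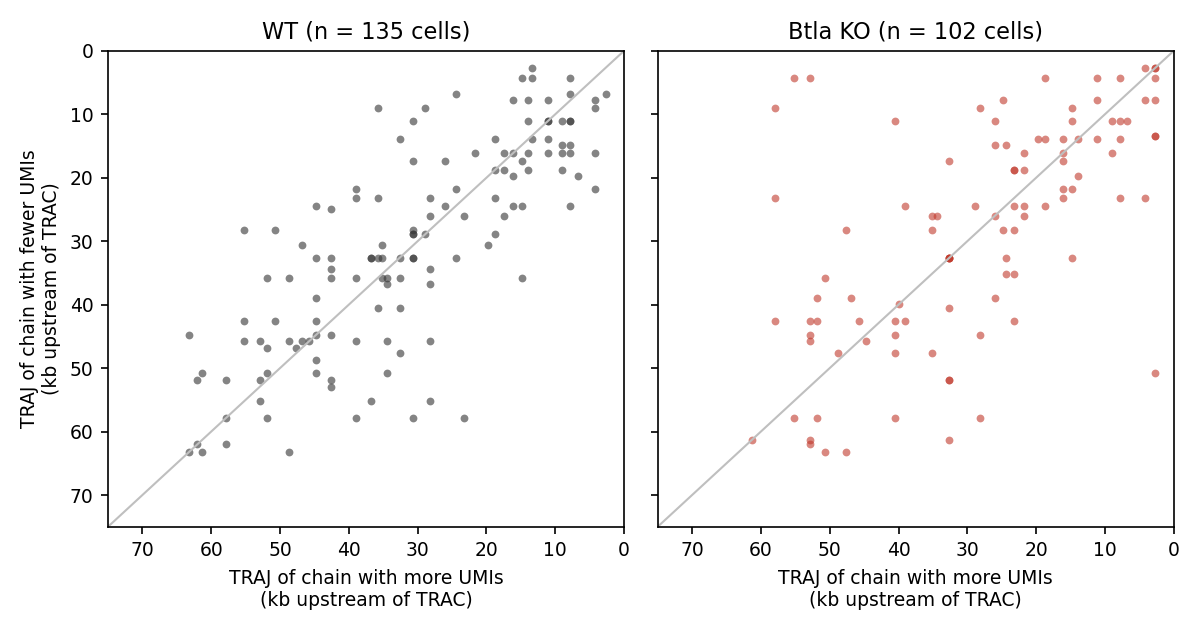
TRAJ start of the chain with more UMIs (x axis) against that of the chain with fewer UMIs (y axis), both in kb upstream of the start of TRAC on linear axes with TRAC at the right and top, 1 point per dual-alpha cell, for 135 WT (left) and 102 KO cells (right). The grey line marks equal positions. Points gather along the line in both libraries, and the corners where 1 chain lies far 5′ and the other far 3′ hold 0 WT and 4 KO cells, counted as TRAJ41 and above with TRAJ1 to TRAJ20.

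In the WT library 69.6% (61.1 to 77.2%, 94 of 135) of dual-alpha cells had TRAJ starts within 10 kb, against 32.3% of the pairs of chains from different cells. Of the KO cells, 64.7% (54.6 to 73.9%, 66 of 102) did, against 31.9% between cells. Within 5 kb the shares were 47.4% (38.8 to 56.2%) against 17.0% in the WT library, and 39.2% (29.7 to 49.4%) against 16.3% in the KO library. In both libraries the between-cell share lay below the interval of the within-cell share at either distance. The same TRAJ segment was found on both chains in 11 WT cells, or 8.15% (4.14 to 14.1%), and in 11 KO cells, or 10.8% (5.51 to 18.5%). Chains of different cells shared a TRAJ in 2.61% and 2.96% of pairs. In 1 of these KO cells both contigs were TRAV12N-2 with TRAJ12 and had the same CDR3, with 1 UMI each. That barcode gives no sign of a second alpha chain, although the rule counts it.

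**Figure D2:**
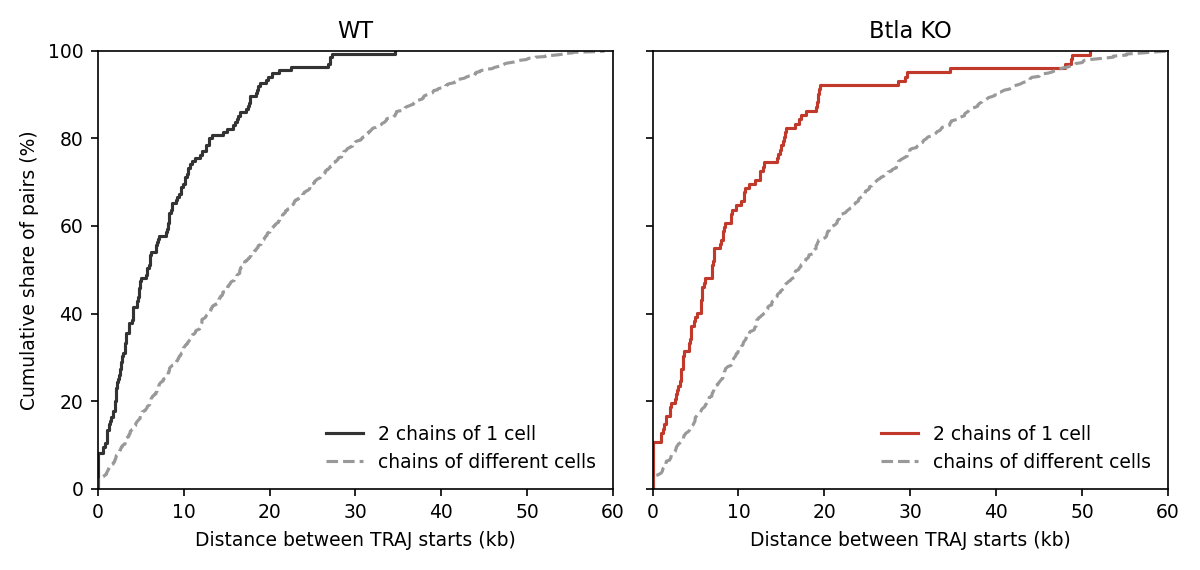
Cumulative share of pairs (y axis, %) by the distance between TRAJ starts (x axis, kb) for WT (left) and KO (right). The solid line is the chains of 1 dual-alpha cell (135 and 102 cells) and the dashed grey line all pairs of chains from different dual-alpha cells of the library. At 10 kb the solid lines stand at 69.6% and 64.7% and the dashed lines at 32.3% and 31.9%.

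The segments were further grouped into a 5′ zone (TRAJ41 and above), a middle zone (TRAJ21 to TRAJ40) and a 3′ zone (TRAJ1 to TRAJ20). Both chains fell in the same zone in 69.6% (61.1 to 77.2%) of WT cells, where the products of the zone shares sum to 34.3%. Of KO cells, 60.8% (50.6 to 70.3%) did so, where the products sum to 35.5%. A chain of the 5′ zone with one of the 3′ zone was found in 0 of 135 WT cells, which allows up to 2.22% by a limit of 3 counts and 2.70% by the exact interval. The products of these shares, added over both orders of the chains, give 17.6%. In the KO library such a pair was found in 4 of 102 cells, or 3.92% (1.08 to 9.74%), where the products added in the same way give 16.1%. These 4 cells paired TRAJ48 with TRAJ2, TRAJ50 with TRAJ4, TRAJ53 with TRAJ7 and TRAJ52 with TRAJ4, at 48.0 to 51.0 kb. In 3 of them the chain with fewer UMIs had 1 UMI, and in the remaining one, with TRAJ2 and TRAJ48, the chains had 6 and 2 UMIs. The mixed pairs were thus few and mostly rested on 1 molecule.

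By the boundary at TRAJ30, 51.5% (45.3 to 57.6%) of WT and 57.8% (50.7 to 64.7%) of KO chains of dual-alpha cells used TRAJ1 to TRAJ30. In single-alpha cells the shares were 48.1% (45.5 to 50.7%) and 57.6% (55.1 to 60.1%). The intervals of dual-alpha and single-alpha cells overlapped in either library. Those of dual-alpha cells count each chain on its own, although the TRAJ of a cell are paired, and are therefore too narrow. In the 3′ zone the WT share was 33.0% (27.4 to 38.9%) of dual-alpha against 26.0% (23.8 to 28.4%) of single-alpha chains. These intervals overlap, although the single-alpha share lay outside the dual-alpha interval. The KO shares of that zone were 37.3% (30.6 to 44.3%) and 37.0%. For the 5′ and middle zones the single-alpha share lay inside the dual-alpha interval in both libraries. What differed from independent chains was the pairing, since only 15.6% (9.89 to 22.8%) of WT and 19.6% (12.4 to 28.6%) of KO cells had 1 chain on each side of the boundary, where the products of shares give 49.96% and 48.8%. In the WT library 43.7% of cells had both chains and 40.7% neither chain in TRAJ1 to TRAJ30, against products of 26.5% and 23.5%. The KO values were 48.0% and 32.4%, against 33.5% and 17.8%.

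Among the most used segments, TRAJ31, in the middle of the cluster, led in both libraries with 15 chains each, in 14 WT and 11 KO cells. It was used by 5.56% of WT and 7.35% of KO chains, where single-alpha cells had 4.80% and 4.32%. These single-alpha shares lay inside the intervals of dual-alpha cells. Over all TRAJ segments, the single-alpha share lay outside for 2 of 43 in the WT and 1 of 43 in the KO library. Among these was TRAJ15 in the WT library, at 4.44% (2.32 to 7.63%) against 2.09% (1.41 to 2.97%). For every segment the 2 intervals overlapped. The partners of TRAJ31 in WT cells ran from TRAJ12 to TRAJ45 with a median number of 34, and 11 of 14 lay within 10 kb. In KO cells the partners ran from TRAJ13 to TRAJ56, and 6 of 11 lay within 10 kb. In the WT library TRAJ15, TRAJ34 and TRAJ9 followed with 12 chains each. TRAJ15 and TRAJ9, of the 3′ zone, were paired mostly with other 3′ segments. The 11 WT cells with TRAJ15 had partners from TRAJ4 to TRAJ23, 10 of them within 10 kb, and in the KO library all 7 partners lay within 10 kb, from TRAJ7 to TRAJ22. For TRAJ9, 9 of 10 WT and 7 of 9 KO partners lay within 10 kb. TRAJ34, of the middle zone, had partners from TRAJ7 to TRAJ49 in 12 WT cells, 7 of them within 10 kb, and was found in 1 KO cell. In the KO library TRAJ2 and TRAJ22 followed TRAJ31 with 10 chains each. TRAJ2 was found in 8 KO cells, with a median partner number of 5 and a median distance of 3.35 kb, and in 2 WT cells. TRAJ22, towards the 3′ end of the middle zone, had partners from TRAJ4 to TRAJ53 in 10 KO cells, 5 of them within 10 kb. For TRAJ15 and TRAJ9 most partners thus lay within 10 kb in both libraries, although TRAJ9 also had partners up to TRAJ30 (WT) and TRAJ39 (KO). TRAJ22 in the KO and TRAJ34 in the WT library had partners towards both ends of the cluster. Since TRAJ15 and TRAJ9 lie near the 3′ end, they cannot have distant partners on that side. No between-cell share was computed for single segments.

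The distances were also read by the UMIs of the chain with fewer UMIs. In the WT library the Spearman correlation was 0.714 (19 cells), 0.717 (35 cells), 0.743 (42 cells) and 0.869 (39 cells) for 1, 2, 3 or 4, and 5 or more UMIs. The share within 10 kb was 73.7% (48.8 to 90.9%) at 1 UMI and 76.9% (60.7 to 88.9%) at 5 or more. In WT cells the pairing was therefore close at every depth. In the KO library the correlation was 0.443 (34 cells) at 1 UMI, 0.725 (35 cells) at 2 UMIs and 0.806 (29 cells) at 3 or 4 UMIs. With contigs of at least 2 UMIs only, the KO correlation was 0.754 and the WT one 0.794. With at least 3 UMIs it was 0.740 in the KO and 0.823 in the WT library. The KO correlation was thus the lower under each of these limits, and the gap was smaller than over all cells. At equal UMIs of the chain with fewer UMIs, the KO correlation was the lower at 1 UMI only. It was slightly the higher at 2 UMIs and the higher at 3 or 4. The limits pool these groups with the cells of 5 or more UMIs, 39 in the WT and 4 in the KO library. The 4 KO cells with 5 or more UMIs in both chains had distances from 10.7 to 19.2 kb, so 0 of 4 lay within 10 kb, with an interval up to 60.2%.

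Cells with 2 TRA and 2 TRB contigs were set beside the dual-alpha cells. Their correlation of TRAJ positions was 0.284 over 23 WT and 0.470 over 20 KO cells, with median distances of 10.9 and 7.56 kb. The share within 10 kb was 47.8% (26.8 to 69.4%) and 55.0% (31.5 to 76.9%). These values lay between those of dual-alpha cells and those of chains from different cells, with intervals that overlap those of dual-alpha cells and also hold the shares of 32.3% and 31.9% between cells. When these cells were counted with the dual-alpha cells, the correlations were 0.728 and 0.619.

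The TRAV genes of a cell were paired far more loosely than the TRAJ segments. The Spearman correlation of the TRAV start positions was 0.248 in the WT and 0.242 in the KO library. The median distance within a cell was 222 kb (quartiles 87.2 and 472) against 311 kb between cells in the WT library, and 291 kb (83.9 and 509) against 320 kb in the KO library. Much of the mouse TRAV cluster exists in near-identical copies, named with D, N or no suffix, which the annotation can exchange, so single TRAV positions are uncertain. With D and N copies set to the copy without suffix, the correlation was 0.0885 in the WT and -0.0630 in the KO library, so the size of this correlation depends on which copy was called. With contigs of at least 2 UMIs the correlation was 0.263 in the WT and 0.317 in the KO library, and with at least 3 UMIs it was 0.0595 and 0.208. The same TRAV subgroup, all copies joined, was found on both chains in 11.1% (6.35 to 17.7%) of WT cells against 8.76% between cells. For KO cells this was 7.84% (3.45 to 14.9%) against 10.3%. The between-cell share lay inside the interval of the within-cell share in either library.

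TRAV6, TRAV7 and TRAV13 were the most used subgroups of dual-alpha cells in both libraries. TRAV6 was used by 17.0% (12.8 to 22.1%) of WT chains and 17.6% (12.7 to 23.6%) of KO chains, where single-alpha cells had 15.5% and 15.2%. TRAV7 was used by 13.3% (9.52 to 18.0%) and 15.7% (11.0 to 21.4%), against 12.7% and 15.1%. TRAV13 was used by 12.2% (8.56 to 16.7%) and 11.8% (7.69 to 17.0%), against 10.0% and 10.9%. For these 3 subgroups the share of single-alpha cells lay inside the interval of dual-alpha cells. Over all subgroups with a dual-alpha or single-alpha chain, it lay outside for 3 of 20 in the WT and 1 of 19 in the KO library, and these are named here after their values were seen. TRAV12 was lower in WT dual-alpha cells, at 6.67% (3.999 to 10.3%) against 12.4% (10.7 to 14.2%), and was the only subgroup whose intervals lay apart. Its KO shares were 9.80% (6.09 to 14.7%) and 11.6% (10.0 to 13.3%). TRAV10 was higher in dual-alpha cells of both libraries, at 4.44% (2.32 to 7.63%) against 2.09% (1.41 to 2.97%) in the WT and 4.90% (2.38 to 8.83%) against 2.35% (1.65 to 3.24%) in the KO library, with intervals that overlap. TRAV17 was used by 2.96% (1.29 to 5.75%) of WT dual-alpha against 1.25% (0.744 to 1.97%) of single-alpha chains. Genes with the N suffix made up 39.3% (33.4 to 45.4%) of WT dual-alpha chains against 33.2% (30.8 to 35.7%) in single-alpha cells, and 38.2% (31.5 to 45.3%) against 38.0% (35.6 to 40.5%) in the KO library, and these intervals overlap.

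Along a single chain, 5′ TRAJ segments went with 3′ TRAV genes. The Spearman correlation of TRAV with TRAJ position was -0.465 over 270 WT and -0.415 over 204 KO chains of dual-alpha cells, near the values of single-alpha cells, -0.454 and -0.443. The TRAV gene of a chain also went with the TRAJ of the other chain of the cell, at -0.410 in the WT and -0.335 in the KO library. All values of this paragraph rest on the TRAV copy that was called, and they were not recomputed with D and N copies joined. In WT cells the median TRAV start lay at 53.56 Mb when the other chain used the 5′ TRAJ zone (72 chains), at 53.35 Mb for the middle zone (109 chains) and at 53.25 Mb for the 3′ zone (89 chains). In KO cells it lay at 53.48 Mb (44 chains), 53.37 Mb (84 chains) and 53.27 Mb (76 chains). The order of the zones was the same in both libraries, although the quartiles of neighbouring zones overlap. Within a cell, however, the chain with the more 3′ TRAJ had the more 5′ TRAV in 51.7% (42.3 to 61.0%, 61 of 118) of WT and 53.9% (43.0 to 64.6%, 48 of 89) of KO cells, close to an even split. Where the TRAJ starts lay over 10 kb apart, the shares were 52.6% (35.8 to 69.0%) and 54.3% (36.6 to 71.2%).

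**Figure D3:**
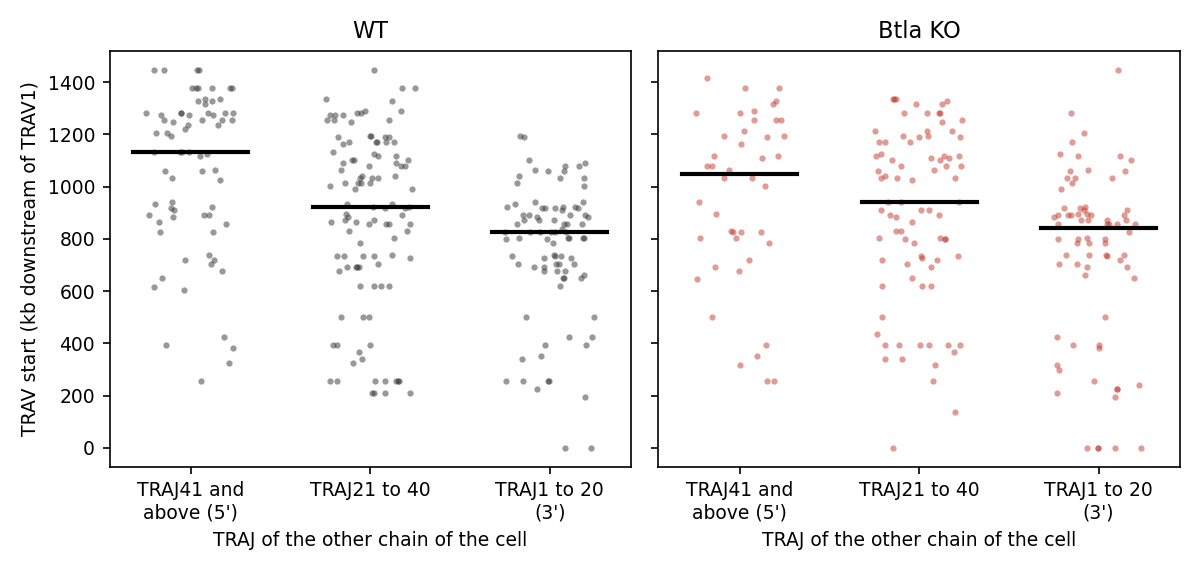
TRAV start in kb downstream of TRAV1 (y axis) for each chain of the dual-alpha cells, by the TRAJ zone of the other chain of the same cell (x axis), with 270 WT chains (left) and 204 KO chains (right). Points are chains, spread sideways for sight, and black bars are medians, which fall from the 5′ to the 3′ zone in both libraries with wide overlap of the points. TRAV starts are those of the copy called, and D and N copies were not joined.

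UMIs were then counted per chain. In WT cells the chain with more UMIs had a median of 5 UMIs (quartiles 3 and 7.5, highest 17) and the other a median of 3 (2 and 5, highest 11). In KO cells the medians were 3 (2 and 4, highest 23) and 2 (1 and 3, highest 14). The median ratio of the lower to the higher count was 0.667 in either library, and 22.2% (15.5 to 30.2%) of WT and 32.4% (23.4 to 42.3%) of KO cells had equal counts. The Spearman correlation of the 2 counts was 0.783 and 0.767, over chains that were ordered by UMIs and share the depth of their cell. The second chain had at least 50% of the UMIs of the first in 113 of 135 WT and 89 of 102 KO cells. Since a cell was included only if both chains were found, and counts were low, these values do not show how often 1 chain dominates.

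**Figure D4:**
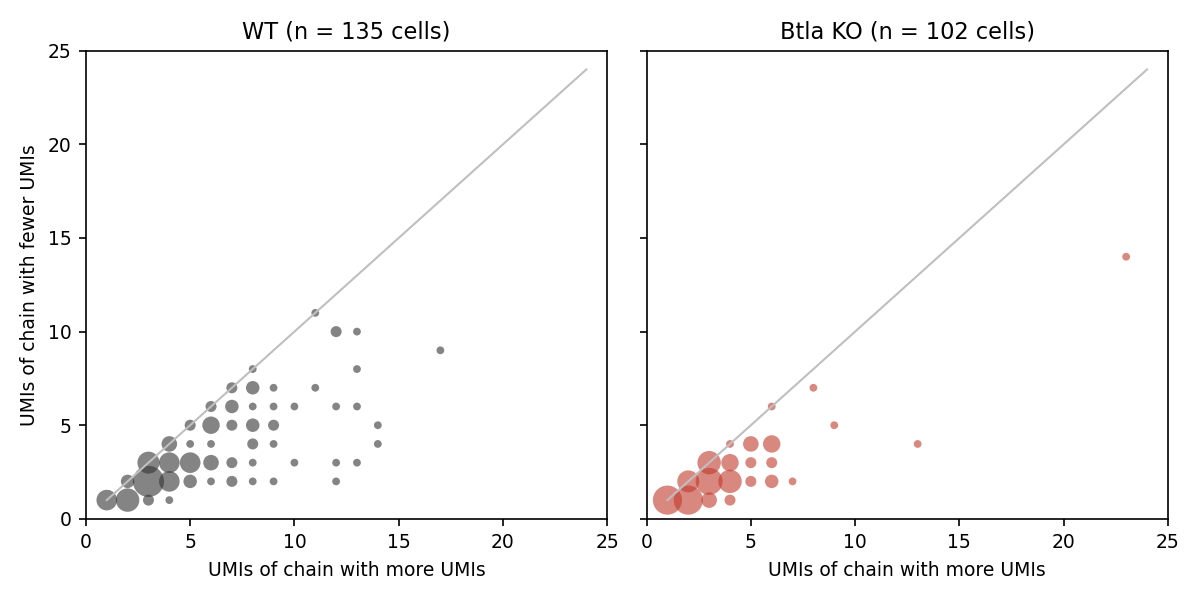
UMIs of the chain with more UMIs (x axis) against UMIs of the chain with fewer UMIs (y axis), both linear, for 135 WT (left) and 102 KO dual-alpha cells (right). The area of a point is proportional to the number of cells at that pair of counts, and the grey line marks equal counts, below which all other points must lie. Most KO cells sit at the lower left, with medians of 3 and 2 UMIs against 5 and 3 in the WT library.

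The TRA UMIs of dual-alpha cells, summed over the chains that the rule requires, had a median of 8 in the WT and 5 in the KO library, where the chain of single-alpha cells had a median of 3 in both. Their TRB UMIs did not stand apart, with medians of 14 against 13 in the WT and 10 against 10 in the KO library. The chain with fewer UMIs rested on 1 UMI in 19 WT cells, or 14.1% (8.69 to 21.1%), and in 34 KO cells, or 33.3% (24.3 to 43.4%), and both chains rested on 1 UMI in 7 and 14 cells. It had a median of 957 reads in the WT and 541.5 reads in the KO library. Both chains had at least 3 UMIs in 60% (51.2 to 68.3%) of the WT dual-alpha cells against 32.4% (23.4 to 42.3%) of the KO ones. The chain with more UMIs carried the more 3′ TRAJ in 50 of 100 WT cells and 30 of 61 KO cells, an even split.

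The CDR3s of dual-alpha and single-alpha cells had similar mean lengths. The mean was 13.7 amino acids (SD 1.54 over 270 chains) in the WT and 13.8 (SD 1.57 over 204 chains) in the KO library, against 13.8 (SD 1.46) and 13.7 (SD 1.51) in single-alpha cells. Over cells, the lengths of the chains of a cell had a Pearson correlation of 0.0986 (WT) and 0.136 (KO), which is weak. Equal lengths were found in 20% (13.6 to 27.8%) of WT cells against 18.97% between cells, and in 13.7% (7.71 to 22.0%) of KO cells against 18.4%. The junctions had a mean of 3.19 inserted bases (SD 2.51) in the WT and 3.48 (SD 2.46) in the KO library, against 3.39 (SD 2.51) and 3.30 (SD 2.53) in single-alpha cells. Between the chains of a cell the inserted bases had a Pearson correlation of 0.0618 and -0.0877. In contrast to the TRAJ position, neither length nor added bases of 1 chain went clearly with those of the other.

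No semi-invariant alpha chain was found among dual-alpha cells. The chain of invariant NKT cells, TRAV11 or its D or N copy with TRAJ18, was found in 0 of 270 WT chains, which bounds the share at 1.11% by a limit of 3 counts and at 1.36% by the exact interval, and in 0 of 204 KO chains, where the bounds are 1.47% and 1.79%. In single-alpha cells it was found in 8 WT cells, or 0.557% (0.241 to 1.09%), and in 9 KO cells, or 0.589% (0.269 to 1.11%). The chain of MAIT cells, TRAV1 with TRAJ33, was likewise found in 0 dual-alpha chains, and in 2 WT and 1 KO single-alpha cells. At this number of chains a lower share than in single-alpha cells was not detectable.

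Most chains of dual-alpha cells were found in 1 cell. A TRA chain of the same TRAV, TRAJ and nucleotide CDR3 was found in another cell of the library for 9 WT and 13 KO dual-alpha cells. For only 3 of these WT and 6 of these KO cells did such another cell also have the same TRB CDR3. For the rest, the matching cells had a different TRB CDR3 or no TRB contig. A dual-alpha cell has 2 chains that can match, and a single-alpha cell 1. With all such cells of either kind left out, the share of dual-alpha cells was 8.43% in the WT and 5.86% in the KO library, against 8.59% and 6.25% before. The TRB chain was found in another cell for 4 WT and 6 KO dual-alpha cells, in 5 and 6 other cells. Of these other cells 0 held both TRA chains, 3 WT and 6 KO cells held 1 of them, 1 WT cell held no TRA contig and 1 WT cell held another TRA chain only. So none of these few cells with a TRB chain in common held both alpha chains, and which of the chains they held was not read. Most cells with a TRA contig held only 1, so these counts do not show whether the other chain was absent or not captured. A single pair of alpha chains was found together in 2 WT cells, shown here by 1 of them.
WT cell 4, TRAV6N-7 with TRAJ27: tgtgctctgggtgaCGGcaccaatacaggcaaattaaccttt
WT cell 4, TRAV5-4 with TRAJ52: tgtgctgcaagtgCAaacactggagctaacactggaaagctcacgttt
Its TRAJ segments, TRAJ27 and TRAJ52, start 27.0 kb apart, among the larger distances of the WT library. The chains had 5 and 4 UMIs in this cell and 3 and 3 in the other. The TRB chains of the cells differed, with the joint call TRBV12-2+TRBV13-2 and TRBJ1-4 on 9 UMIs in the first and TRBV12-1 with TRBJ1-5 on 13 UMIs in the other. How the same pair of alpha chains came to be found with different beta chains was not tested. Leaving out all cells with a repeated TRA chain gave TRAJ correlations of 0.798 in the WT and 0.666 in the KO library.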

How the data were processed

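Contigs of 1 WT and 1 Btla KO (KO) library were analysed. The authors assembled and annotated the reads with Cell Ranger 7.2.0 and GRCm38, per the labels, and the deposited contig tables hold counts, not normalized, of the reads and the UMIs that support a contig. Only productive contigs of called cells are listed, so out-of-frame second alleles are not seen. The library totals were 80347 UMIs on 6003 contigs (WT) and 75456 UMIs on 7101 contigs (KO), of which dual-alpha cells gave 1229 and 601 TRA UMIs. Deposited tables of CDR3 lengths for 1 chain per cell, clone proportions and V gene percentages were not used.

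Barcodes were grouped by library. Gene starts were taken from GENCODE M21 on GRCm38. CDR3s were matched from the TRAV end and the TRAJ start of the GRCm38.p6 genome, and bases matching neither were called inserted, which counts palindromic bases and allelic differences as inserted and misses inserted bases that equal germline ones. The join could not be placed for 4 of 1862 WT and 5 of 1920 KO TRA chains. Thinning used the exact expectation over draws of 10 UMIs without replacement. Shares have exact 95% Clopper-Pearson intervals. Those of chain shares treat the chains of a cell as separate counts, so for TRAJ shares of dual-alpha cells they are too narrow. Pairs between cells share chains and are not independent, so their shares have no interval. No droplets with several cells were removed.

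Named TRAJ segments and TRAV subgroups are the 3 most used per library (with ties), and printed cells follow the UMI, distance and repeat criteria stated beside them. The partners of each such TRAJ were read in both libraries. The members and lists were chosen with earlier results of these data known, and so was the TRAJ30 boundary. Alternatives were contigs with at least 2 or 3 UMIs, exactly 1 TRB contig, barcodes of both libraries or repeated TRA chains left out, exactly 2 TRA contigs, chains ordered by UMIs, positions as order numbers, TRAV copies joined, and boundaries at TRAJ20 and TRAJ40. Added after seeing the data were cells with 2 TRB contigs kept and the cell with identical contigs left out. The distance measures and the thinning were tested on simulated data. Computations used Python 3.11.15, pandas 2.3.3, numpy 2.4.6, scipy 1.17.1 and matplotlib 3.10.9.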

Additional observations from a re-analysis of the deposited data

How the results depend on the processing

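Of 146 values recomputed under the alternatives, 43 could not move by construction, because the setting left the cells or their ranks as they were, and say nothing of stability. Of the other 103, 89 stayed within the main value's counting interval or, for correlations, within 0.1. This count is no measure of stability, since some settings took out very few dual-alpha cells. Leaving out barcodes of both libraries removed 2 WT cells, and leaving out identical contigs removed 1 KO cell. The boundaries at TRAJ20 and TRAJ40 define another share, which had to move. The share of dual-alpha cells in the KO library was 5.10% with contigs of at least 2 UMIs and 3.62% with at least 3, where the WT shares were 8.60% and 7.51%, so the KO share fell by more than the WT share. The KO TRAJ correlation was 0.754 with at least 2 UMIs, and the median UMIs of the second chain were 4 (WT) and 3 (KO) with at least 3, as that limit itself sets. The WT TRAV correlation was 0.0595 with at least 3 UMIs. With TRAV copies joined it was 0.0885 in the WT and -0.0630 in the KO library, where the median TRAV distances were 105 and 125 kb, which joining copies shortens by its construction. The share of chains 3′ of the boundary was 33.0% and 37.3% at TRAJ20, and 73.3% and 78.4% at TRAJ40. Cells whose TRAV subgroups have no D or N copy numbered 1 in the WT and 0 in the KO library, so that alternative gave no value. No paired analysis was possible because each genotype has 1 library, and for the same reason no library could be left out. The depth limits the KO values most, where 34 of 102 second chains rest on 1 UMI.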

Other observations

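The TRB chains of dual-alpha cells were not part of the comparisons above. Their mean CDR3 length was 13.99 amino acids (SD 1.43 over 135 chains) in the WT and 14.2 (SD 1.40 over 102 chains) in the KO library, against 14.1 (SD 1.48) and 14.2 (SD 1.51) in cells with 1 TRA and 1 TRB contig. Segments of the TRBJ2 cluster accounted for 61.5% (52.7 to 69.7%) of the WT dual-alpha cells and 61.8% (51.6 to 71.2%) of the KO ones, against 59.5% and 62.1%. TRBV13, without the joint call TRBV12-2+TRBV13-2, was used by 15.6% (9.89 to 22.8%) and 15.7% (9.24 to 24.2%), against 12.9% and 12.1%. The joint call made up 7.41% (3.61 to 13.2%) and 5.88% (2.19 to 12.4%), against 8.18% and 8.39%. TRBV3, chosen after its values were seen, was used by 3.70% (1.21 to 8.43%) and 2.94% (0.611 to 8.36%), against 6.69% (5.44 to 8.12%) and 7.03% (5.77 to 8.46%). All these intervals overlap, so a difference in beta chain features was not detectable at this number of cells.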
